A study of Mus musculus with 12 samples.

Results

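Gene expression of primary mouse hepatocytes (mouse HPC) was compared between 2 h and 20 min of treatment with TGF-β1. The comparison used the 3 arrays titled as 2 h and the 3 titled as 20 min, taken as 3 pairs by the replicate number of the title, so 6 of the 12 arrays of the series were members. The hepatocytes came from male C57BL/6 mice by collagenase digestion of the liver, were plated on collagen in serum-free medium, and received fresh medium 1 h before stimulation. Both groups then received recombinant human TGF-β1 at 1 ng/mL and differed by the time until harvest. The other 6 arrays were 3 of untreated cells and 3 of cells after 4 h with the same dose. Because both groups had been stimulated, any effect of handling that was complete at 20 min is shared, while effects of the medium exchange that develop later change with time in the same way as effects of TGF-β1, and the 2 cannot be told apart without untreated cells at 2 h. For these cells the study's methods name 1 h and not 20 min among the times, while its overview of experiments names both, and the groups here follow the labels. The study calls its replicates biological, and the sources do not say whether each came from a separate animal or culture, so p-values measure the spread between these arrays.

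TGF-β1 binds a pair of serine/threonine kinase receptors, which phosphorylate SMAD2 and SMAD3. These enter the nucleus with SMAD4 and bind short DNA elements beside other factors, and the first genes they turn on include inhibitors of the same pathway. In hepatocytes TGF-β1 limits proliferation, can cause apoptosis and favours a mesenchymal gene program. Immediate early genes can respond to handling and medium change, and the study cites an earlier report that TGF-β induces EGR1, a member of this class.

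The 3 genes with the largest differences between 2 h and 20 min were Pmepa1, Smad7 and Skil, inhibitors of SMAD signaling, with higher signals at 2 h, and the gene with the lowest difference was the chemokine Cxcl13. None of these passed the test with all arrays: limma called 0 of 21789 probe sets at an adjusted p under 0.05 (percent called 0), and the lowest adjusted p was 0.775. At an unadjusted p under 0.05 there were 1113 probe sets, 5.11% of those tested, with 728 higher and 385 lower at 2 h. That share is close to what the threshold alone would give if no probe set differed. The 1113 became 331 with no replicate block, 468 without the 20 min array of replicate 1 and 539 without its 2 h array. Counted by gene, each read at its brightest probe set on average, 1008 of 19938 genes (5.06%) were at that level, 673 higher (3.38%) and 335 lower (1.68%). The signals of the groups did not overlap for 520 genes that were higher (2.61%) and 409 that were lower (2.05%). No gene reached a 2-fold difference in the fit, and 17 probe sets reached 1.5-fold. The standard error of a log2 fold change had a median of 0.077 over the probe sets. The adjusted p of the 102 genes whose differences are described singly below lay between 0.775 and 0.977, so their differences are given as values that did not pass, and the log2 fold changes are followed by the standard error of limma.

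The 3 pairs did not show the same differences. Over probe sets, the difference between 2 h and 20 min had an SD of 0.22, 0.15 and 0.13 in replicates 1, 2 and 3, and 56, 0 and 13 probe sets differed by at least 2-fold in them. Replicate 1 stood apart from the others at each time, with correlations to them of 0.978 to 0.988 against 0.994 to 0.997 among replicates 2 and 3. For its mouse hepatocyte arrays the study reported a strong batch effect, without saying which arrays it set apart. The count of calls turned on the 2 h array of replicate 2. Without it limma called 15 probe sets at an adjusted p under 0.05 (0.0688% of those tested), and without all arrays of replicate 2 it called 3 (0.0138%). The genes these counts name are given with their values below. The array was picked out because of these calls, so adjusted p-values without it depend on that choice. The treatment of that array cannot be checked from the signals, and it was kept in each value unless stated.

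Inhibitors that act on the receptors and SMADs had the largest differences. Pmepa1, a membrane protein that binds receptor-regulated SMADs and dampens the pathway, had log2 signals of 8.01, 7.97 and 8.0 at 20 min in replicates 1, 2 and 3 and of 9.12, 8.20 and 9.52 at 2 h. The groups did not overlap, and the 2 h array of replicate 2 was 0.24 above its partner while the others were 1.11 and 1.52 above theirs. The log2 fold change was 0.96 ± 0.23, with a 95% interval from 0.44 to 1.47 and an adjusted p of 0.939 in limma. Without the 2 h array of replicate 2 it was 1.38 ± 0.11 (limma, adjusted p = 0.00163). Its gene is on chromosome 2 (GRCm38.p6, 173224458 to 173276731).

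Skil, the corepressor SnoN that holds SMAD complexes inactive, had log2 signals of 8.92, 8.88 and 9.0 at 20 min and of 9.92, 9.08 and 10.49 at 2 h. Its groups did not overlap either, and replicate 2 again gave the smallest difference, 0.20 against 1.00 and 1.49. The log2 fold change was 0.90 ± 0.28. Smad7, the inhibitory SMAD that recruits ubiquitin ligases to the receptor, had 7.80, 8.0 and 7.97 at 20 min and 8.69, 7.94 and 9.99 at 2 h. Its groups overlapped, since replicate 2 was 0.06 lower at 2 h, and the log2 fold change was 0.95 ± 0.34. Replicate 3 differed most, by 2.02, and the value was 0.41 without it and 1.45 without replicate 2. At 4 h the arrays of replicate 2 no longer lay low: Pmepa1 had 10.30, 10.76 and 10.48, Skil 9.95, 10.78 and 10.69, and Smad7 8.52, 9.28 and 9.02 in replicates 1, 2 and 3.

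**Figure D1:**
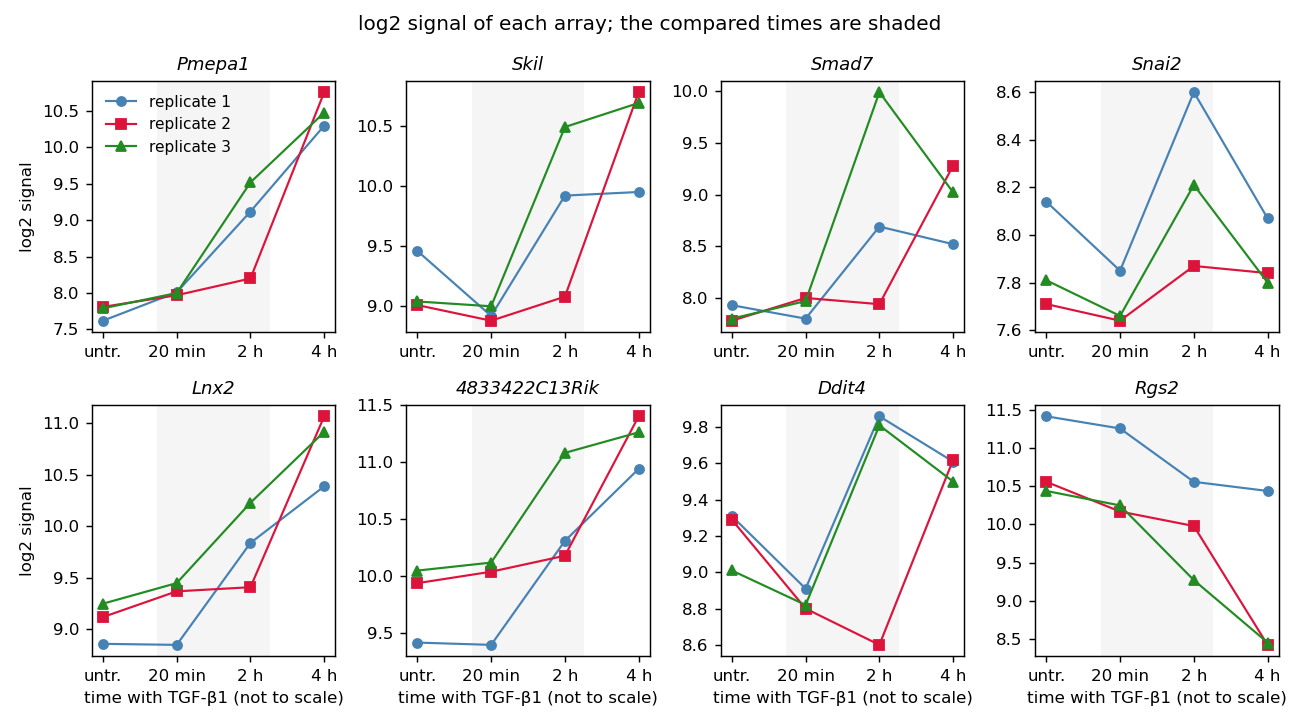
log2 signal (y axis, own range in each panel) of 8 genes on each of the 12 arrays, by time with TGF-β1 from untreated to 4 h (x axis, steps not to scale), with 1 line for each replicate and the compared times shaded. Replicate 2 is the lowest of the 3 at 2 h for each gene shown except Rgs2. The 3 span a narrower range at 4 h than at 2 h for each gene shown except Rgs2, where the range is wider.

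Of the 27 measured members of the list of SMAD feedback and direct target genes, 0 passed the test, 7 were higher and 1 lower at an unadjusted p under 0.05, against 3.38% and 1.68% of all genes. In 3 of 3 pairs 11 members were higher and 2 lower, where 14% and 9.9% of all genes were. The median log2 fold change of the list was 0.13 against 0.01 over all genes, and in replicates 1, 2 and 3 the median was 0.09, 0.00 and 0.22. The other members higher at that level were Snai2, Bambi, Tgif1 and Ski.

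Snai2, a repressor that drives epithelial to mesenchymal transition, had the lowest unadjusted p of the list. Its log2 signals were 7.85, 7.64 and 7.66 at 20 min and 8.60, 7.87 and 8.21 at 2 h, higher in each pair and without overlap. The log2 fold change was 0.51 ± 0.09 (limma, adjusted p = 0.775). At 4 h the signals were 8.07, 7.84 and 7.80, close to those of untreated cells (8.14, 7.71 and 7.81). The test of the later step (4 h minus 2 h) against the earlier one (2 h minus 20 min) gave Snai2 a difference of -0.83 ± 0.16, which did not pass (limma, adjusted p = 0.739).

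Bambi, a pseudoreceptor that blocks signaling at the membrane, differed by 0.37 ± 0.12, with 0.61, 0.02 and 0.47 in replicates 1, 2 and 3. Its mean log2 signal was 8.45 in untreated cells, 8.06 at 20 min and 8.42 at 2 h, so its 2 h level lay near that of untreated cells. Tgif1, a homeodomain corepressor of SMAD2, differed by 0.30 ± 0.10, with 0.50, 0.00 and 0.41. Both had their smallest difference in replicate 2, as Pmepa1 and Skil had. Ski, the corepressor related to Skil, was 0.15 ± 0.07 higher and Smad6, which inhibits BMP signaling, 0.13 ± 0.08. The member that was lower was Lmcd1, a LIM domain cofactor, with log2 signals of 6.89, 6.46 and 6.60 at 20 min and 6.45, 6.28 and 6.37 at 2 h. It was lower in 3 of 3 pairs, with -0.28 ± 0.08.

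Matrix targets varied between the pairs. Ccn2, a matricellular protein that is a frequently used TGF-β1 target, had 12.25, 12.36 and 12.31 at 20 min and 12.16, 12.36 and 13.32 at 2 h. Only replicate 3 was higher, and the log2 fold change of 0.31 ± 0.21 became -0.05 without replicate 3. In the untreated cells it had 11.27, 11.33 and 11.70, so 20 min stood 0.87 above them. Thbs1, a matrix protein that activates latent TGF-β, differed by 0.71, -0.03 and 0.39 in replicates 1, 2 and 3. Lox, which cross-links collagen, was higher in each pair, by 0.25, 0.54 and 0.72, with replicate 2 in the middle, and its log2 fold change was 0.51 ± 0.16. Among the 30 measured matrix and matricellular genes Lox was the 1 higher at an unadjusted p under 0.05. Timp3, an inhibitor of metalloproteinases, was the 1 lower, at -0.29 ± 0.10. Over all genes 3.38% were higher and 1.68% lower at that level, so these counts were near the shares over all genes. The median of the list was -0.03.

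Receptors and signal-transducing SMADs were described by 19 genes, of which 0 passed, with a median of 0.00. At an unadjusted p under 0.05, 4 were higher and 0 lower, against 3.38% and 1.68% of all genes. The 4 were the type I receptors Tgfbr1 (0.31 ± 0.10) and Acvr1 (0.31 ± 0.10), the activin type II receptor Acvr2a (0.29 ± 0.09) and the signal transducer Smad2 (0.19 ± 0.08), each higher in 3 of 3 pairs. Tgfbr1 had log2 signals of 8.86, 9.55 and 9.56 at 20 min, 9.38, 9.68 and 9.82 at 2 h and 10.14, 10.36 and 10.19 at 4 h. Acvr2a had a mean of 8.69 in untreated cells, 8.43 at 20 min and 8.72 at 2 h, near the untreated level again. Of the 23 measured ligands and their binders, 0 were higher and 2 lower at that level: Lrrc32, the protein that holds latent TGF-β on the cell surface, at -0.40 ± 0.15, and the activin subunit Inhbb at -0.18 ± 0.08. Among the 15 BMP target genes, the inhibitor of DNA binding Id1 was higher in 3 of 3 pairs (0.70 ± 0.24), with 0.74, 0.07 and 1.28 in replicates 1, 2 and 3. Id3 differed by 0.16, -0.04 and 1.14.

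Genes outside the core of the pathway were also in the ranking by size. At an unadjusted p under 0.01, 125 genes were higher (0.627%) and 43 lower (0.216%), and the ranking held the 15 largest in each direction among those alike in 3 of 3 pairs. Lnx2, a ubiquitin ligase that binds the Notch regulator NUMB, had log2 signals of 8.85, 9.37 and 9.45 at 20 min and of 9.84, 9.41 and 10.23 at 2 h. Replicates 1 and 3 were higher by 1.00 and 0.78, and replicate 2 by 0.04, so the groups overlapped. The log2 fold change was 0.61 ± 0.17 with all arrays (limma, adjusted p = 0.939) and 0.89 ± 0.09 without the 2 h array of replicate 2 (limma, adjusted p = 0.00768). The long noncoding RNA 4833422C13Rik had 9.40, 10.04 and 10.12 at 20 min and 10.31, 10.18 and 11.08 at 2 h. It differed by 0.67 ± 0.16 with all arrays and by 0.93 ± 0.10 without that array (limma, adjusted p = 0.00768).

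Both promoters are shown because these genes were called only once that array was left out and RefSeq holds their sequence here (GRCm38.p6, both on the minus strand, written 5′ to 3′). The array was picked out by such calls, so they are not a separate test of these genes. Capitals mark CAGAC or its reverse complement GTCTG, the short element that SMAD proteins bind. The promoter of Lnx2 is chr5:147076573-147076822, the 250 bases before the start of the gene. That of 4833422C13Rik is chr13:91741823-91742122, with 250 bases before and 50 after the start of this noncoding gene.
Lnx2: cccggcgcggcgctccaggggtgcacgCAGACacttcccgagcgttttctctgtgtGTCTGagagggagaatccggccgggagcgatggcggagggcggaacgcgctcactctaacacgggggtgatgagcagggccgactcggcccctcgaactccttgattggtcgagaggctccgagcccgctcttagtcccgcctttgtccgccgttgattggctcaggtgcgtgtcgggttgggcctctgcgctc
4833422C13Rik: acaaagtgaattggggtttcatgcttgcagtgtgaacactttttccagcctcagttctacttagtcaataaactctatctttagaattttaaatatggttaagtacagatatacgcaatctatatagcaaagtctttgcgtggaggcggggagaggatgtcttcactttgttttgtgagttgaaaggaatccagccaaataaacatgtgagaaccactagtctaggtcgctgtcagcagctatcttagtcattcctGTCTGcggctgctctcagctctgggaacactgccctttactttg
Lnx2 held 2 matches, both before its start. The 1 match of 4833422C13Rik lay among the 50 bases after the start, with 0 in the 250 bases before it. In windows of 300 bases, CAGAC on either strand was present in 49.6% of 32851 RefSeq promoters, so a match is common. Of the 30 genes in the ranking by size, 20 had a promoter sequence here and 13 of these held CAGAC. A gene counted if any of its promoters held the motif, while the percentages count single promoters. On both strands the AP-1 motif TGAGTCA was in 0 of the 20 (5.2% of all promoters), the CRE motif TGACGTC in 1 (3.21%), the E-box CACGTG in 1 (7.15%) and the CArG box, which SRF binds, in 0 (1.63%).

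Without the 2 h array of replicate 2, the 15 probe sets called stood for 11 genes. The 9 higher were Pmepa1, Ddit4, 4833422C13Rik, Lnx2, the pseudogene Serpina4-ps1, Snai2, Zfp697, Mfsd2a and the predicted gene Gm4952, and the 6 lower were 5 probe sets of Nlrc5 and 1 of the kinase gene Map3k13. Without all arrays of replicate 2 the 3 called were Pmepa1, Ddit4 and Lnx2. Each of the 6 compared arrays was left out in turn, and each of the other 5 gave 0 calls. Ddit4, an inhibitor of mTORC1 that responds to stress and glucocorticoids, had 8.91, 8.80 and 8.82 at 20 min and 9.86, 8.60 and 9.81 at 2 h. Replicate 2 differed in the opposite direction, by -0.20, and the log2 fold change was 0.58 ± 0.23 with it and 1.00 ± 0.08 without its 2 h array (limma, adjusted p = 0.00163). Mfsd2a, a transporter of lysophosphatidylcholine, was higher in 3 of 3 pairs (0.51, 0.15 and 0.68). Zfp697, a zinc finger gene, differed by 0.64, 0.07 and 0.59, and Map3k13 by -0.50, 0.04 and -0.51.

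**Figure D2:**
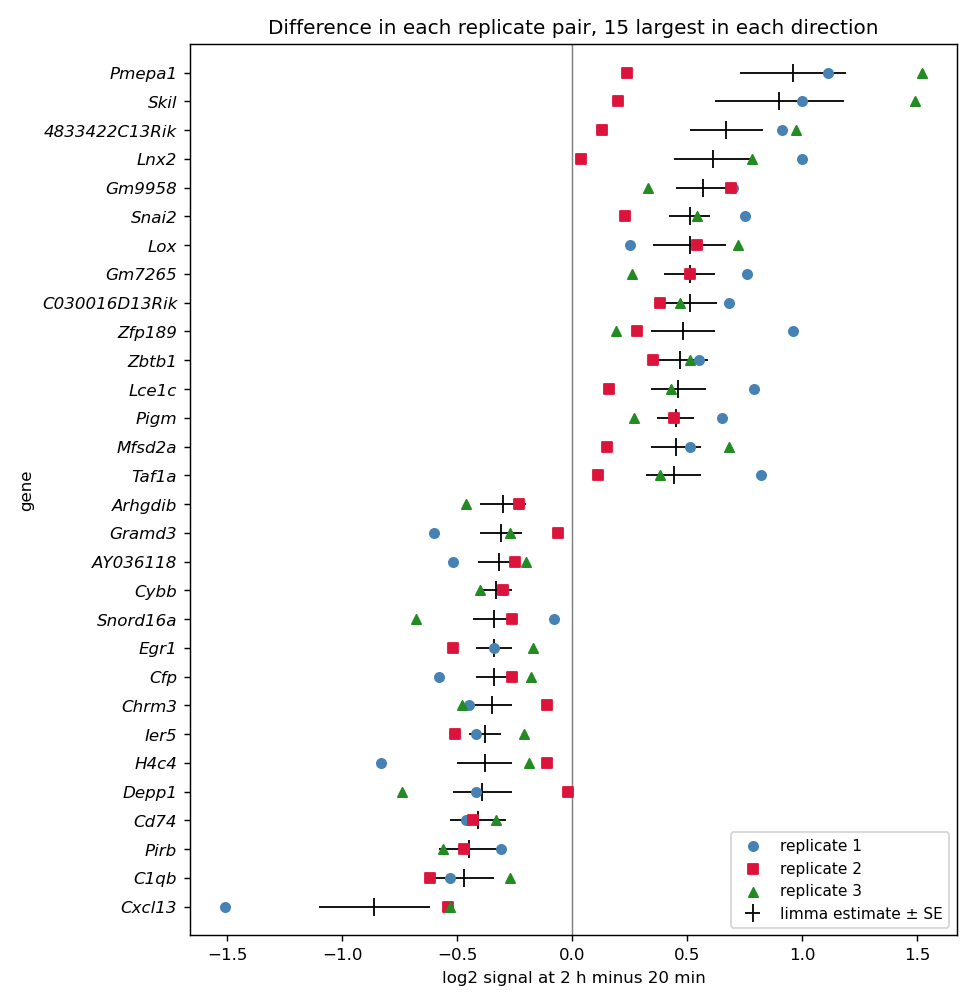
Difference of the log2 signal between 2 h and 20 min (x axis) in each of the 3 replicate pairs (coloured symbols) for the 15 genes with the largest difference in each direction (y axis) among those with an unadjusted p under 0.01 and the same direction in all pairs, with the limma estimate and its standard error in black. Replicate 2 lies nearest 0 for Pmepa1, Skil, 4833422C13Rik and Lnx2 and within the range of the others for Gm9958, Lox and Pigm.

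The ranking also held genes whose 20 min signals lay below those of untreated cells. Pigm, a mannosyltransferase of GPI anchor synthesis, had 8.84, 8.55 and 8.49 in untreated cells, 8.32, 8.33 and 8.33 at 20 min and 8.96, 8.77 and 8.60 at 2 h. Its 2 h signals lay near those of untreated cells, and the difference of 20 min from untreated was -0.30, a comparison that shares the 20 min arrays with the one described here. The predicted gene Gm9958 behaved in the same order, with 8.12, 7.53 and 7.49 in untreated cells, 7.13 on each 20 min array and 7.83, 7.82 and 7.45 at 2 h. C030016D13Rik, a noncoding RNA, was 0.46 lower at 20 min than in untreated cells and 0.51 ± 0.12 higher at 2 h than at 20 min. Taf1a, a subunit of the RNA polymerase I factor SL1, was 0.30 lower at 20 min and 0.44 ± 0.12 higher at 2 h than at 20 min. In contrast Pmepa1, Lnx2 and 4833422C13Rik stood 0.25, 0.15 and 0.05 above untreated cells at 20 min. Zbtb1, a zinc finger transcription factor, was higher in each pair, by 0.55, 0.35 and 0.51, and Zfp189, another zinc finger gene, by 0.96, 0.28 and 0.19. The predicted gene Gm7265 (0.51 ± 0.11) and the late cornified envelope gene Lce1c (0.46 ± 0.12) complete the genes that were higher.

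Among the 26 genes of SOCS, growth hormone and cytokine receptor signaling, 4 were higher and 1 lower at an unadjusted p under 0.05. Over all genes 3.38% were higher and 1.68% lower, and the median of this list was 0.04. Socs2, a feedback inhibitor of growth hormone signaling, had 9.58, 9.41 and 9.69 at 20 min and 9.93, 9.86 and 10.72 at 2 h. It was higher in 3 of 3 pairs without overlap, with a log2 fold change of 0.61 ± 0.22. A dimmer probe set of Socs2 was at 0.10 ± 0.09, and its groups overlapped. Il22ra1, the receptor chain for interleukin 22, was higher by 0.10, 0.39 and 0.89 (0.46 ± 0.16), and its groups did not overlap. Replicate 2 was not the smallest pair for these genes. Cish, another SOCS family inhibitor, differed by 0.36 ± 0.15, with 0.44, -0.00 and 0.65 in replicates 1, 2 and 3.

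Nlrc5, the transactivator of MHC class I genes, was lower at 2 h on every probe set that reads it, and it was chosen after its values were seen. It lies on chromosome 8 (GRCm38.p6, 94434335 to 94527272), and 19 probe sets carry its symbol. All 19 were lower at 2 h, with log2 fold changes from -0.67 to -0.16 and a median of -0.34, and 16 had an unadjusted p under 0.05. Of their 57 pair differences 52 were negative, and the medians in replicates 1, 2 and 3 were -0.48, -0.23 and -0.38. The probe sets read 1 gene on the same arrays and are not replicates of each other. The probe set with the largest difference had 9.14, 9.77 and 9.73 at 20 min, 8.10, 9.37 and 9.15 at 2 h and 8.35, 9.24 and 9.22 at 4 h for the 3 replicates. It was -0.67 ± 0.11, with the lowest unadjusted p of the gene, 6.28e-05 (limma, adjusted p = 0.775). Its brightest probe set on average was at -0.19 ± 0.11, and the mean over the 19 was -0.37 ± 0.09 (limma, adjusted p = 0.944).

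**Figure D3:**
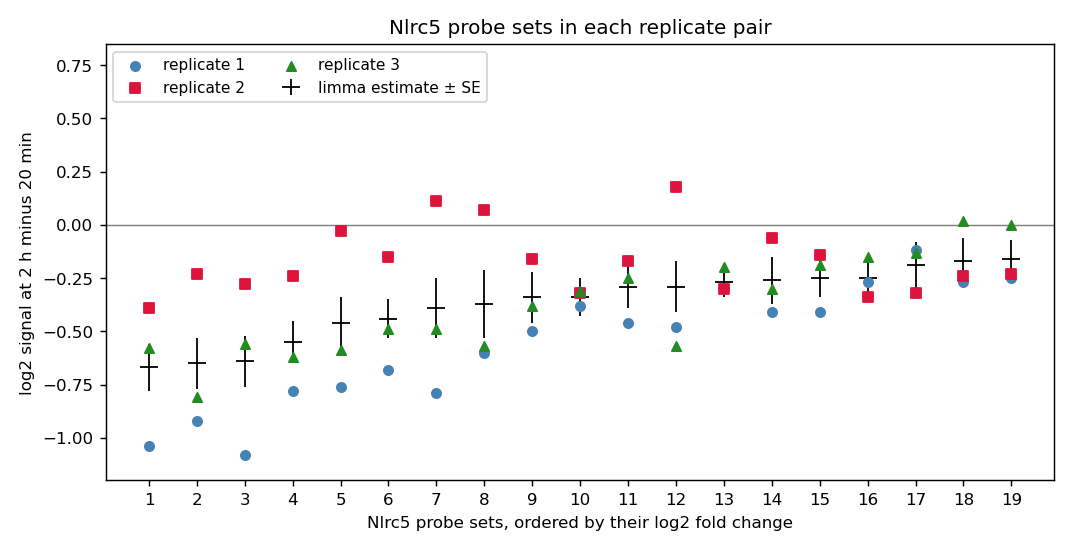
Difference of the log2 signal between 2 h and 20 min (y axis) for the 19 probe sets of Nlrc5, ordered by their log2 fold change (x axis), in each replicate pair (coloured symbols) and as the limma estimate with its standard error (black). All 19 estimates lie below 0, from -0.67 to -0.16, and replicate 2 lies above 0 for 3 of the probe sets.

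Immediate early genes respond to stimuli without new protein synthesis. Of 33 measured, 0 passed, and 0 were higher and 7 lower at an unadjusted p under 0.05, against 3.38% and 1.68% of all genes. In 3 of 3 pairs 9 were lower and 2 higher, where 9.9% and 14% of all genes were. The median of the list was -0.09, and without replicates 1, 2 and 3 it was -0.06, -0.05 and -0.12. Ier5, a stress-induced nuclear protein, had 9.17, 8.59 and 8.53 at 20 min and 8.75, 8.07 and 8.31 at 2 h. In each pair it was lower, by 0.42, 0.51 and 0.21, which gave -0.38 ± 0.07. Egr1, a zinc finger factor of growth factor responses, had 11.51, 11.20 and 11.20 at 20 min and 11.17, 10.68 and 11.03 at 2 h, with no overlap and a log2 fold change of -0.34 ± 0.08. Rgs2, which ends signaling of Gq-coupled receptors, differed by -0.70, -0.19 and -0.98 (-0.62 ± 0.21), and at 4 h it was at 10.44, 8.42 and 8.45.

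The antiproliferative gene Btg2 (-0.28 ± 0.09), Ier2 (-0.28 ± 0.10), the mRNA decay factor Zfp36 (-0.27 ± 0.11) and Myc (-0.17 ± 0.07) were the other members lower at that level. Among the 14 AP-1 genes, Jun was lower at that level (-0.17 ± 0.07) and no member was higher at it. Of all genes 1.68% were lower and 3.38% higher, and the median of the list was 0.00. Fos had 8.41, 7.28 and 7.21 at 20 min and 8.14, 7.04 and 7.21 at 2 h, a log2 fold change of -0.17 ± 0.10. Atf3 differed by 0.21, -0.25 and 0.33. Depp1, a FoxO target linked to autophagy, was lower by 0.42, 0.02 and 0.74, and the muscarinic receptor gene Chrm3 by 0.45, 0.11 and 0.48.

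Markers of hepatocytes and of other liver cells were read in the same fit. The 11 measured hepatocyte markers, among them albumin, transthyretin and apolipoproteins, had log2 fold changes from -0.06 to 0.06, and their mean log2 signal per array was 13.88 to 13.92 at 20 min and 13.88 to 13.90 at 2 h. Of 18 markers of Kupffer cells and macrophages, 0 passed, and 0 were higher and 7 lower at an unadjusted p under 0.05. Of all genes 3.38% were higher and 1.68% lower at that level. In 3 of 3 pairs 8 markers were lower and 0 higher, against 9.9% and 14% of all genes. The 18 markers had a median log2 fold change of -0.17, with -0.20, -0.14 and -0.10 in replicates 1, 2 and 3. Their mean log2 signal per array ranged from 7.64 to 7.85 at 20 min and from 7.51 to 7.62 at 2 h. Whether a marker was above the array background was not tested. Fewer macrophages and less of their RNA per cell cannot be told apart in these bulk samples.

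C1qb, a chain of complement C1q made by macrophages, had 9.66, 9.0 and 8.92 at 20 min and 9.13, 8.38 and 8.65 at 2 h, lower by 0.53, 0.62 and 0.27 in the pairs (-0.47 ± 0.13). The Fc receptor chain Fcer1g (-0.30 ± 0.11), the adaptor Tyrobp (-0.27 ± 0.10), the macrophage surface protein Adgre1 (-0.22 ± 0.09), C1qa (-0.19 ± 0.08), the CSF1 receptor Csf1r (-0.19 ± 0.07) and the haemoglobin scavenger receptor Cd163 (-0.16 ± 0.06) were the other 6. Cxcl13, a chemokine that attracts B cells, had 8.80, 9.56 and 9.62 at 20 min and 7.29, 9.02 and 9.09 at 2 h. Its log2 fold change of -0.86 ± 0.24 was the lowest of all genes, and the pairs were lower by 1.51, 0.54 and 0.53, so replicate 1 lay apart.

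Other genes of myeloid cells stood in the ranking of the 15 lowest. Pirb, an inhibitory receptor, had 7.06, 7.15 and 7.04 at 20 min and 6.75, 6.67 and 6.49 at 2 h without overlap. Cd74, the invariant chain of MHC class II, was lower by 0.46, 0.43 and 0.33, and the complement activator Cfp by 0.58, 0.26 and 0.18. Cybb, the catalytic subunit of the phagocyte NADPH oxidase, was lower by 0.30, 0.30 and 0.40 (-0.33 ± 0.07). Also in that ranking were the small nucleolar RNA Snord16a (-0.34 ± 0.09), AY036118 (-0.32 ± 0.09), Gramd3 (-0.31 ± 0.09) and the histone gene H4c4 (-0.38 ± 0.12), whose probes may also read its near-identical copies. Of 13 NADPH oxidase genes, 4 were lower at an unadjusted p under 0.05, Cybb with its partners Cyba (-0.18 ± 0.07) and Rac2 (-0.26 ± 0.11) among them. The 1 higher was Nox4, the isoform of non-phagocytic cells (0.32 ± 0.13), which had 9.19, 7.26 and 7.07 at 20 min in replicates 1, 2 and 3. Of all genes 1.68% were lower and 3.38% higher at that level, and the median of this list was -0.05. The other marker lists gave fewer differences at an unadjusted p under 0.05. They were 1 of 14 for endothelial cells, the hyaluronan receptor Lyve1 (-0.25 ± 0.08), 1 of 12 for neutrophils, and 0 of 15 for stellate cells and fibroblasts, 0 of 8 for cholangiocytes, 0 of 12 for lymphocytes and 0 of 4 for erythroid cells.

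**Figure D4:**
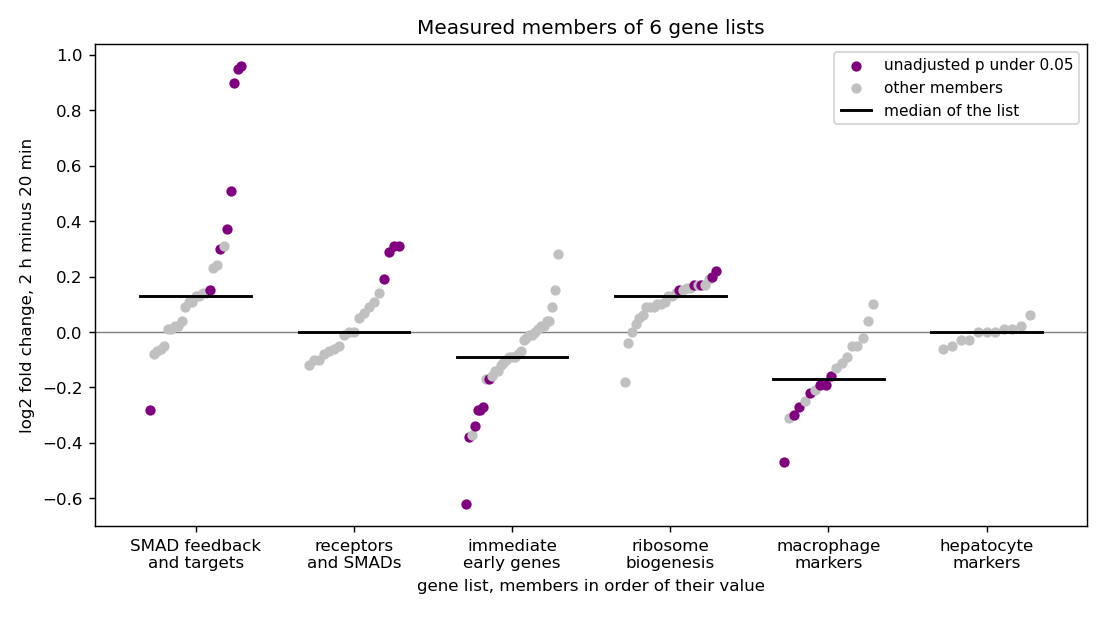
log2 fold change between 2 h and 20 min (y axis) of each measured member of 6 gene lists (x axis, members in order of their value), with members at an unadjusted p under 0.05 in purple and the list's median as a black line. The medians are 0.13 for SMAD feedback and target genes, -0.09 for immediate early genes, 0.13 for ribosome biogenesis, -0.17 for macrophage markers and -0.00 for hepatocyte markers.

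Ribosome biogenesis genes encode the factors that process ribosomal RNA and assemble the subunits. Of 26 measured, 0 passed, and 5 were higher and 0 lower at an unadjusted p under 0.05, against 3.38% and 1.68% of all genes. In 3 of 3 pairs 14 were higher and 0 lower, against 14% and 9.9% of all genes. The median was 0.13 and stayed between 0.09 and 0.17 without each replicate. Nob1, an endonuclease of small subunit maturation, had 10.04, 10.69 and 10.49 at 20 min and 10.29, 10.84 and 10.68 at 2 h. It was higher by 0.25, 0.16 and 0.19, a log2 fold change of 0.20 ± 0.07. Noc3l (0.22 ± 0.09) and Wdr12 (0.17 ± 0.07) act in large subunit maturation, Nop56 (0.17 ± 0.07) is a core protein of box C/D particles, and Rrn3 (0.15 ± 0.07) starts transcription by RNA polymerase I.

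Signal-responsive transcription factor genes outside the SMAD pathway gave a few members each. At an unadjusted p under 0.05, 3.38% of all genes were higher and 1.68% lower. List medians were 0.05 for clock, 0.02 for NF-κB and 0.01 for Notch pathway genes. Of 17 circadian clock genes, 3 were higher and 0 lower at an unadjusted p under 0.05: the repressors Nfil3 (0.36 ± 0.10), Per2 (0.28 ± 0.07) and Cry1 (0.25 ± 0.11). Per2 had 7.97, 8.29 and 8.33 at 20 min, 8.38, 8.49 and 8.57 at 2 h and 8.56, 8.77 and 8.80 at 4 h, so its 2 h signals lay above all 20 min signals. Of 18 NF-κB genes, 3 were higher and 0 lower: the atypical IκB Nfkbiz (0.30 ± 0.07), the subunit Rel (0.28 ± 0.09) and the coregulator Bcl3 (0.23 ± 0.10). Nfkbiz stood 0.40 lower at 20 min than in untreated cells. Of 20 Notch pathway genes, 4 were higher: Lnx2, the ligand Jag1 (0.32 ± 0.12), the glycosyltransferase Lfng (0.21 ± 0.09) and Numb (0.21 ± 0.09).

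Stress and liver function lists held few members at that level, where 3.38% of all genes were higher and 1.68% lower. Of 25 ATF4 and stress response genes 3 were higher, Ddit4 and the glutathione-degrading enzyme Chac1 (0.38 ± 0.17) among them. Of 18 heat shock genes, 5 were higher and 4 lower in 3 of 3 pairs, where 14% and 9.9% of all genes were. The 2 higher at an unadjusted p under 0.05 were the chaperones Dnajb4 (0.36 ± 0.11) and Hspa4 (0.15 ± 0.06). Of 24 endoplasmic reticulum chaperone and unfolded protein response genes, 3 were higher and 0 lower in 3 of 3 pairs, against the same 14% and 9.9%. The 2 higher at an unadjusted p under 0.05 were Dnajb11 (0.24 ± 0.09) and the disulfide isomerase Pdia6 (0.17 ± 0.07). At 20 min the median of this list against untreated cells was -0.30, a comparison that shares the 20 min arrays. At 2 h Dnajb11 and Pdia6 were still lower than in untreated cells, at -0.14 and -0.23. The liver factor Foxa3 had 9.29, 9.28 and 9.21 at 20 min and 9.59, 9.46 and 9.53 at 2 h, without overlap (0.27 ± 0.08), and Foxo1 was 0.22 ± 0.07 higher. The mean of Foxa3 was 9.54 in untreated cells and 9.53 at 2 h. Of 25 cytochrome P450 genes 0 were higher or lower at an unadjusted p under 0.05, as were 0 of 22 cholesterol and fatty acid synthesis genes and 0 of 27 apoptosis genes. The bile acid enzyme Akr1d1 (0.31 ± 0.10), the organic anion transporter Slco1a1 (0.23 ± 0.07), the tryptophan enzyme Kynu (0.28 ± 0.09) and the ornithine carrier Slc25a15 (0.23 ± 0.07) were higher. Slco1a1 had 10.92, 7.71 and 7.68 at 20 min and 11.15, 7.81 and 8.03 at 2 h, so the gap between replicate 1 and the others was far wider than the difference in time. Kynu had such a gap as well, with 11.14, 9.21 and 8.98 at 20 min. Acute phase genes gave 2 lower of 25, the pentraxin Apcs (-0.34 ± 0.12) and the orosomucoid Orm2 (-0.21 ± 0.07). Of 30 actin and focal adhesion genes, 8 were lower and 0 higher in 3 of 3 pairs, against 9.9% and 14% of all genes, and 2 were lower at an unadjusted p under 0.05. The actin-binding protein Tagln2 was 1 of these, with -0.91, 0.02 and -0.17 in replicates 1, 2 and 3. Its log2 fold change of -0.35 ± 0.14 was -0.07 without replicate 1. Marveld2, a tight junction protein, was 0.24 ± 0.07 higher, with a mean of 9.07 in untreated cells, 8.81 at 20 min and 9.05 at 2 h.

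The next step, from 2 h to 4 h, shares the 2 h arrays with this comparison, so its values are set beside it only for the genes above. In limma 17 of 21789 probe sets passed there (0.078%), and the test of the later against the earlier step called 0, with 1310 probe sets (6.01%) at an unadjusted p under 0.05 and a lowest adjusted p of 0.434. Pmepa1 differed by 0.96 ± 0.23 from 20 min to 2 h and by 1.57 ± 0.23 from 2 h to 4 h (limma, adjusted p = 0.0483 for the later step). The low 2 h array of replicate 2 makes its first step smaller and its later step larger. Pmepa1 had 9.12, 8.20 and 9.52 at 2 h and 10.30, 10.76 and 10.48 at 4 h in replicates 1, 2 and 3. No value of the later step without that array is given here. Thbs1 differed by 0.36 ± 0.19 and then by 1.34 ± 0.19 (limma, adjusted p = 0.0425), and Il22ra1 by 0.46 ± 0.16 and then by 1.09 ± 0.16 (limma, adjusted p = 0.0483). Skil differed by 0.90 ± 0.28 and then by 0.64 ± 0.28, and Smad7 by 0.95 ± 0.34 and then by 0.07 ± 0.34. The difference between the steps did not pass for any of these genes.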

How the data were processed

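The series has 12 Affymetrix Mouse Gene 1.0 ST arrays. Their deposited values are log2 signals for which the authors' processing notes name RMA and Affymetrix Power Tools without versions, so background correction, normalization between arrays and probe set summary had been done. The study's own analysis used FARMS and batch adjustment, not applied here. Of 35556 probe sets, the 21789 with exactly 1 symbol in the platform annotation were tested, 1621 had several and 12146 were not listed. limma 3.58.1 in R 4.3.3 was fitted to all 12 arrays with time and replicate number as factors, and p was adjusted after Benjamini-Hochberg over the tested probe sets.

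Same-numbered 20 min and 2 h arrays deviated together from their group means (r of 0.84, 0.67 and 0.66), so numbers were taken to pair arrays, although 2 and 3 were not separable (0.67 and 0.59 crossed). A gene was read at its probe set with the highest mean signal. Named were up to 15 genes a direction by size at an unadjusted p under 0.01 and 1 direction in 3 pairs, up to 4 members per list by p, and fixed TGF-β genes. Nlrc5, Bambi, Tgif1, Ski, Ier2, Zfp36, Adgre1, C1qa, Cd163, Rrn3, Serpina4-ps1, Zfp697, Gm4952 and Map3k13 were chosen after their values were seen. Members and lists were chosen with earlier results of these data known. The number of arrays, 3 per group, limits precision. Alternative fits, filters and left-out arrays are given in the closing section.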

Additional observations from a re-analysis of the deposited data

How the results depend on the processing

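The count of 0 called probe sets was also 0 with no replicate block, with the block as a random effect, with only the 6 compared arrays, with unnamed probe sets included, with dim probe sets (under the median signal) left out, with quantile normalization, median centring, a trended and robust prior, array weights, the mean of a gene's probe sets, a test against a fold of 1.2 and the study's threshold. Leaving out replicates or single arrays gave 0 to 15 called probe sets, with the calls coming from leaving out replicate 2 (3) or its 2 h array (15). The cause was not tested. The 1113 probe sets at an unadjusted p under 0.05 became 331 with no replicate block (0 called by limma), 1730 with unnamed and 636 without dim probe sets, which test more and fewer features, and 19 when tested against 1.2-fold. Leaving out replicates or arrays moved it from 468 to 1629, with 468 without the 20 min array of replicate 1 and 539 without its 2 h array. The test of the later against the earlier step called 0 with no replicate block and without each replicate. Of 102 genes tried under the alternatives, 100 kept their direction. Many of them were named for the same direction in 3 of 3 pairs, which leaving out a replicate cannot reverse. Others were named for a small p within their list. A kept direction is therefore no separate support for these genes. Leaving out a replicate or an array moved 56 of the 102 values by over 1.5 times in at least 1 setting (31 without replicate 1, 16 without replicate 2 and 21 without replicate 3). It gave Ccn2 from -0.05 to 0.51 and Atf3 from -0.02 to 0.27, both negative without replicate 3. The alternatives of the count at an unadjusted p under 0.05 were added after seeing the data, as were list medians without each replicate. Signal over background was not analysed here.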
